A study of Homo sapiens with 2 samples.

Results

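Interferon-high cells were the 25% of DAC-treated HCT116 cells with the highest summed expression of 8 interferon-stimulated genes. They numbered 280 of the 1120 DAC-treated cells that had 10000 UMIs or more and 50% or less mitochondrial UMIs, of 1751 DAC-treated cells and 3534 cells in all. A unique molecular identifier (UMI) is a tag that marks 1 captured transcript molecule, so that PCR copies are counted once. For each cell, the UMIs of *IFI27*, *IFI6*, *ISG15*, *IFIT1*, *IFIT3*, *OAS1*, *MX1*, and *IFI44L* were summed and divided by the UMIs of the cell, and this share is called the score. Cells were ranked by the score and split into 4 groups of 280 cells, called interferon-low, lower-middle, upper-middle, and interferon-high, and the interferon-high cells were compared with the interferon-low cells. The score chose the cells, so the levels of the 8 genes in the groups are given as a description.

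The HCT116 line was derived from a human colon carcinoma, and DAC (decitabine) is a nucleoside drug that lowers DNA methylation by trapping DNA methyltransferases on the DNA. DAC was given at 0.5 μM on days 1 and 3, fresh medium followed on day 5, and harvest was on day 7, while the mock-treated cells received no DAC. From each condition, 1 library of single cells captured in droplets was made. There was thus no replicate check, no test was run, and the 95% intervals given with UMI sums and ratios cover counting error only. Intervals given with shares of cells treat the cells of 1 library as independent draws. They do not cover differences between cultures.

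Interferons are secreted proteins that cells release when receptors inside the cell detect foreign or misplaced nucleic acid. They bind to receptors on the cell surface, and Janus kinases then phosphorylate STAT proteins, which join IRF9 and enter the nucleus. This complex binds to the interferon-stimulated response element in front of a large group of genes, whose products restrict viruses, sense nucleic acid, and present peptides on MHC class I molecules. Drugs that remove DNA methylation are known to switch on these genes in cancer cells.

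The DAC-treated library contained 59046165 UMIs and the mock-treated library contained 49911689 UMIs in 1783 cells, of which 1298 passed the same limits. Both libraries shared 12 barcodes, none of them among the interferon-high cells. Depth differed little between the groups, with a median of 45441.5 UMIs per interferon-high cell and 45813 per interferon-low cell. Mitochondrial genes took a median of 19.1% of the UMIs of an interferon-high cell and 16.0% in the interferon-low cells. For all comparisons, each cell was thinned at random to 10000 UMIs.

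The score was a continuum without a gap at the limit. It ranged from 41.1 to 245 UMIs per 10000 in the interferon-high cells, with a median of 62.3. The lowest cell inside had 41.1415 and the highest cell outside had 41.1361, and 69 DAC-treated cells were within 10% of the limit. In the interferon-low cells, the score ranged from 0.970 to 9.50 with a median of 5.42. The median of mock-treated cells was 2.10 and their highest value was 20.6, so that none of the 1298 cells reached the interferon-high range, which by a limit of 3 counts allows a share of up to 0.231%, with a Clopper-Pearson upper limit of 0.284%. Among the DAC-treated cells, 546 of 1120 (48.8%, Clopper-Pearson 95% interval 45.8 to 51.7) were above the highest mock-treated cell. When the score was computed from the thinned UMIs, 260 of the 280 cells were again among the highest 280.

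**Figure D1:**
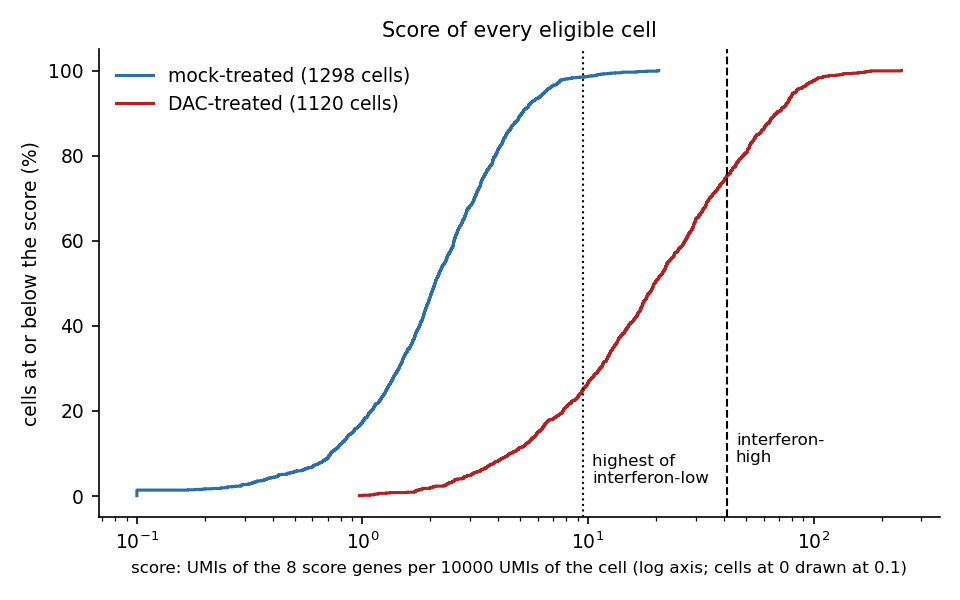
Share of eligible cells (vertical axis, %) at or below each score (horizontal axis, UMIs of the 8 score genes per 10000 UMIs of the cell, log axis) for 1298 mock-treated cells (blue) and 1120 DAC-treated cells (red). The dashed line is the lowest score of the interferon-high cells, 41.1, and the dotted line is the highest score of interferon-low cells, 9.50. The red curve rises without a step, and the highest mock-treated cell, at 20.6, is left of the dashed line.

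The sequences in front of the score genes with the most UMIs and of *SAMD9* and *BST2*, both among the 15 genes with the highest ratios outside the score (of genes with 200 UMIs or more over the 1120 cells), are shown because they hold the core of the interferon-stimulated response element. The motif searched was GAAANNGAAA on both strands, where N is any base, and its reverse complement is TTTCNNTTTC. Neighboring matches may overlap by 4 bases. The 200 bases before a start site are written 5′ to 3′ on the strand of the gene, from RefSeq on GRCh38.p14, with the motif in capitals. The stretches are chr14:94110536-94110735 (plus strand) for *IFI27*, chr1:27672193-27672392 (minus strand) for *IFI6*, chr1:1013297-1013496 (plus strand) for *ISG15*, chr10:89392423-89392622 (plus strand) for *IFIT1*, chr7:93117980-93118179 (minus strand) for *SAMD9*, and chr19:17405631-17405830 (minus strand) for *BST2*.
*IFI27*: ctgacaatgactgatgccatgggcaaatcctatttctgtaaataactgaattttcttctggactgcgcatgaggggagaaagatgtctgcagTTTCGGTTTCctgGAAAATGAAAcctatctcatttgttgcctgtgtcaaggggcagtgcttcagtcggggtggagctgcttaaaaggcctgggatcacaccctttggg
*IFI6*: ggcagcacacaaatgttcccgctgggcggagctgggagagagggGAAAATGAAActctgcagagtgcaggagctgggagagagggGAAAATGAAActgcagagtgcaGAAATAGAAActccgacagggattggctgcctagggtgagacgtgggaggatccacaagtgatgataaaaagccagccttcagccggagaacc
*ISG15*: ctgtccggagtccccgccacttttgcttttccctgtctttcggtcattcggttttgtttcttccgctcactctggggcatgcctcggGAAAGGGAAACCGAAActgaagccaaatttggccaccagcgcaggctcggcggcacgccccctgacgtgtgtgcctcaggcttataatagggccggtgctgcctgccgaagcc
*IFIT1*: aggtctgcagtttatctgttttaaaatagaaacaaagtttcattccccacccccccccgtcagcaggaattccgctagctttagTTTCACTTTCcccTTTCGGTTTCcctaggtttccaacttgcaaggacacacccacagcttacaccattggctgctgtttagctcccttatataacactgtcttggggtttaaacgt
*SAMD9*: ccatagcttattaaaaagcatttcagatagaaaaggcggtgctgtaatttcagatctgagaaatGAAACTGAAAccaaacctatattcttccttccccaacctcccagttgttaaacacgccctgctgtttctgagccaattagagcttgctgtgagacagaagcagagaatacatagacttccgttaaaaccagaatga
*BST2*: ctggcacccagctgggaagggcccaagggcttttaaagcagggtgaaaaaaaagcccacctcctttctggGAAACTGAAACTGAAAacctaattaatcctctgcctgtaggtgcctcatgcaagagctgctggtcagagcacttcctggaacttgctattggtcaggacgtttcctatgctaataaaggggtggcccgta

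*IFI6* held 3 matches, *IFI27*, *ISG15*, *IFIT1*, and *BST2* held 2 each, and *SAMD9* held 1. In *ISG15* and *BST2*, the 2 matches overlapped. In the whole windows of 250 bases before and 50 bases after each start site, 10 of the 12 windows of the 8 score genes had the motif (83.3%), and so did 1255 of all 35116 windows of the table (3.57%). The 2 windows of *IFI27* overlap and hold the same matches. By gene, 7 of the 8 score genes had the motif (87.5%), and so did 1195 of all 27305 genes of the table (4.38%). The window of *OAS1* and a window of *MX1* had no match. A match is a description of the sequence, and binding to these stretches was not measured here.

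*IFI27* and *IFI6* encode small membrane proteins, and *ISG15* encodes a ubiquitin-like protein that is attached to other proteins. These 3 genes supplied most of the score. *IFI27* had 22.7 UMIs per cell in the interferon-high cells, 9.96 in the upper-middle cells, 4.82 in the lower-middle cells, 1.30 in the interferon-low cells, and 0.0547 in mock-treated cells. *ISG15* had 31.0, 13.7, 7.57, and 3.25 UMIs per cell from interferon-high to interferon-low cells, and 2.24 in mock-treated cells. *IFI6* had 13.5, 4.88, 2.0, and 0.661 UMIs per cell in the same order, and 0.313 in mock-treated cells. A UMI of *IFI27* was found in 60.7% of interferon-low cells (54.7 to 66.5) and 4.70% of all eligible mock-treated cells (3.61 to 6.0), and one of *ISG15* in 90.0% and 79.4%. The interferon-low cells were selected for low values of these genes and the mock-treated cells were not.

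The other 5 score genes were sparse outside the interferon-high cells. As cells of 1 line hold no type that lacks these genes, the share of UMIs from free RNA in the droplets was not measured. Mock-treated cells are a separate library and give no background for free RNA in the DAC-treated library, so that UMIs of the score genes in interferon-low cells, those of *IFI27* included, cannot be told apart from free RNA. *IFIT1*, whose product binds viral RNA that lacks a host cap, was detected in 51.4% of interferon-high cells (45.4 to 57.4), 18.2% of upper-middle cells, 3.93% of lower-middle cells, 2.86% of interferon-low cells, and 1.85% of mock-treated cells. *MX1*, a GTPase that blocks viruses, was detected in 32.9%, 10.7%, 5.71%, and 1.43% from interferon-high to interferon-low cells, and in 0.385% of mock-treated cells. *IFIT3*, a partner of IFIT1, had 113 UMIs in the interferon-high cells and 4, 8, and 5 in the upper-middle, lower-middle, and interferon-low cells. *OAS1*, which makes the messenger that activates RNase L, had 52 UMIs in the interferon-high cells, 11 in the upper-middle cells, 7 in the lower-middle cells, and 1 in the interferon-low cells. *IFI44L* had 9 UMIs in the interferon-high cells and 3 in the other DAC-treated cells. At 10000 UMIs, the median number of score genes detected was 4 in interferon-high cells and 2 in interferon-low cells, and 4 or more genes were detected in 197 interferon-high cells, 79 upper-middle cells, 27 lower-middle cells, and 4 interferon-low cells.

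**Figure D2:**
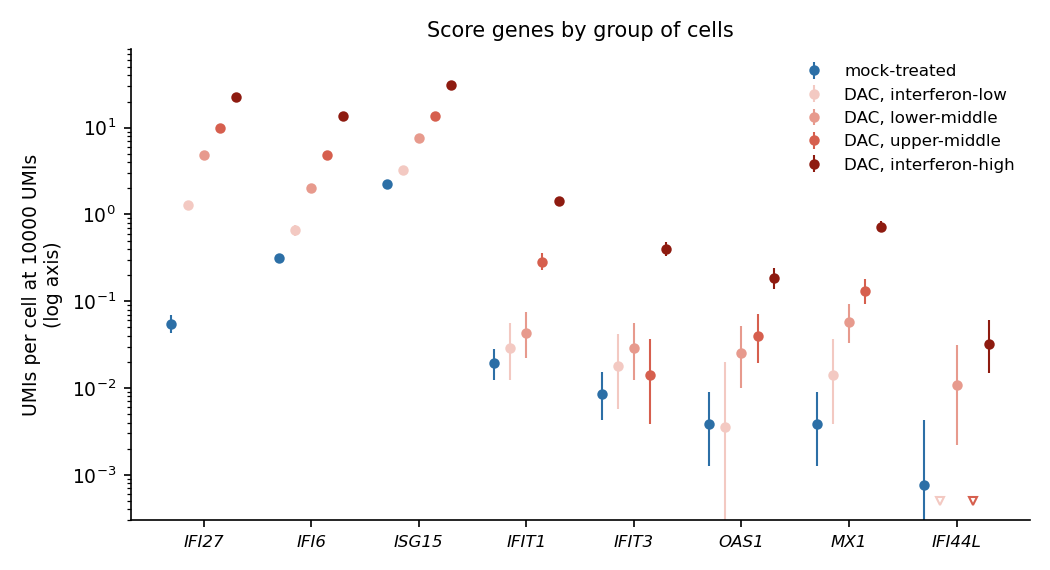
Mean UMIs per cell at 10000 UMIs (vertical axis, log axis) of the 8 score genes (horizontal axis) in mock-treated cells (blue) and in the 4 groups of DAC-treated cells (pink to dark red). Bars are exact Poisson 95% intervals and open triangles mark groups with no UMI, drawn below the scale of the data. *IFI27*, *IFI6*, and *ISG15* step up through all 4 groups, from 1.30 to 22.7 UMIs per cell for *IFI27*, while *IFIT3*, with 113 UMIs, is high in the interferon-high cells alone.

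To see whether a gene was high in cells that it did not help to choose, each score gene was left out in turn and the cells were ranked by the other 7. *IFI27* then had 5437 UMIs in the 280 cells ranked highest and 890 in the 280 ranked lowest, a ratio of 6.11 (5.69 to 6.56). *IFI6* had 3542 and 261 UMIs (13.6-fold), and *ISG15* had 7570 and 1585 UMIs (4.78-fold). *IFIT1* had 392 and 8 UMIs (49.0-fold, 24.6 to 114), *MX1* had 199 and 4, *IFIT3* had 111 and 5, *OAS1* had 52 and 1, and *IFI44L* had 9 and 0. All 8 genes thus had more UMIs in cells picked by the others. The median log2 ratio was at least 4.12, with *IFI44L* set against 3 counts over the lowest group as its lower bound. In mock-treated cells ranked in the same way, *IFI27* had 35 UMIs in the highest group and 7 in the lowest, *IFI6* had 172 and 68, and *ISG15* had 1055 and 573.

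Interferon-high cells did not all have the same mixture of the 3 main genes. *ISG15* made up a median of 42.6% of the score UMIs of a cell, *IFI27* 32.4%, and *IFI6* 17.9%. *ISG15* supplied more than 50% of the score in 93 cells, *IFI27* in 42, and *IFI6* in 3, while 9 interferon-high cells had no UMI of *IFI27*. Across the 1120 cells, Spearman's rho was 0.61 between *IFI6* and *ISG15*, 0.57 between *IFI27* and *IFI6*, and 0.50 between *IFI27* and *ISG15*. Within the 280 interferon-high cells, the 3 values in the same order were 0.13, 0.20, and −0.16. These cells share 1 library and were selected on the sum of these genes, and the values are a description.

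Outside the score, 6073 genes had 200 UMIs or more over the 1120 cells and are called measured. Of these, 347 genes (5.71%) were higher by 1.5-fold or more in the interferon-high cells than in the interferon-low cells, and 134 genes (2.21%) were lower. At 2-fold, 84 genes were higher and 8 were lower. The shares past 1.5-fold, 5.71% higher and 2.21% lower, are the background for the counts in the lists below. The median log2 ratio of all genes was 0, with −0.20 as the 25th and 0.22 as the 75th percentile. Lists of interferon genes had 63 members among the genes measured, of which 45 were higher by 1.5-fold or more and 41 by 2-fold or more. Some members reached 200 UMIs through the interferon-high cells, and of the 50 members with 200 UMIs in mock-treated cells 33 and 28 were. The same split of mock-treated cells, with 324 cells in the highest and in the lowest group, gave 237 of 5996 genes (3.95%) higher and 470 (7.84%) lower. Most score UMIs of mock-treated cells were of *ISG15*, with 2908 against 406 of *IFI6* and 71 of *IFI27*. Their groups thus rest on few UMIs and mainly on *ISG15*. Values of the mock-treated split, here and below, are not a like-for-like background.

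Many single genes near 1.5-fold depended on the random thinning. With another draw of 10000 UMIs per cell, 200 of the 347 higher genes and 53 of the 134 lower genes were again past 1.5-fold, and without thinning 192 and 38 were. Over 8 alternatives (another draw, no thinning, the score from thinned UMIs, ranking within groups of similar depth, G2/M share, or mitochondrial share, the score without *IFI27*, and the mean rank of the 8 genes), 117 genes stayed higher and 11 stayed lower by 1.5-fold or more. Of the 117, 41 were in the interferon lists.

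**Figure D3:**
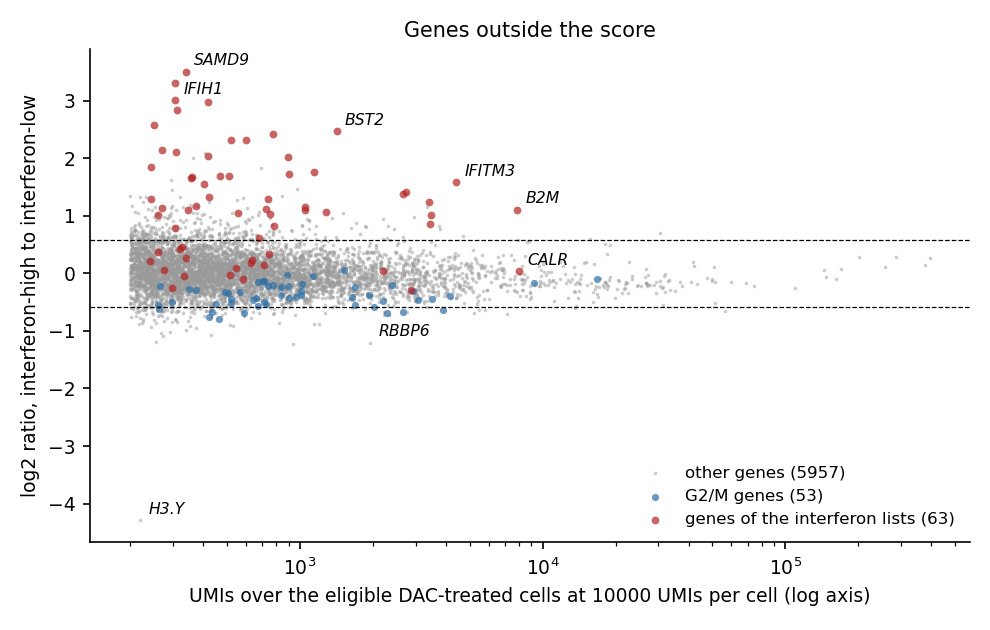
Log2 ratio of UMIs in the interferon-high cells to the interferon-low cells (vertical axis) against UMIs over the 1120 cells (horizontal axis, log axis) for 6073 genes outside the score. Genes of the interferon lists are red, G2/M genes are blue, other genes are grey, and dashed lines mark 1.5-fold. Red points reach up to *SAMD9* at 3.50, while *CALR* is near 0 and a few lie below it, blue points sit mostly below 0, and *H3.Y* at −4.29 rests on a few cells.

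Effector genes, which carry out the antiviral and antiproliferative functions of interferon, were higher almost without exception. Of 69 such genes outside the score, 65 had a UMI in interferon-high or interferon-low cells, and 62 of them had more UMIs in the interferon-high cells and 2 had fewer. The list had 27 genes with 200 UMIs or more, of which 24 were higher by 1.5-fold or more (23 of them also without thinning) and 0 were lower, with a median log2 ratio of 1.37. As high levels in the interferon-high cells helped genes to reach 200 UMIs, the list was also taken with the genes that had 200 UMIs in mock-treated cells, and the median was then 1.16. In the same split of mock-treated cells, 8 of 21 genes were higher and 1 was lower, with a median of 0.42. The list as a whole had 33.4 UMIs per cell in the interferon-high cells, 20.5 in the upper-middle cells, 15.5 in the lower-middle cells, 10.8 in the interferon-low cells, and 13.9 in mock-treated cells.

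*SAMD9*, which restricts poxviruses, had the highest ratio outside the score among genes with 200 UMIs or more. It had 193 UMIs in the interferon-high cells, 83 in the upper-middle cells, 46 in the lower-middle cells, and 17 in the interferon-low cells, a ratio of 11.4 (6.91 to 19.9), and was detected in 117 interferon-high cells and 13 interferon-low cells. *IFI35* had 235, 97, 55, and 30 UMIs from interferon-high to interferon-low cells (7.83-fold, 5.34 to 11.9). *BST2*, or tetherin, which holds budding viruses at the cell surface, had 683, 386, 225, and 123 UMIs (5.55-fold, 4.58 to 6.78). Mock-treated cells had 0.0978 UMI of *BST2* per cell, against 0.439 in the interferon-low cells and 2.44 in the interferon-high cells. *OAS3*, an enzyme of the same family as OAS1, had 285, 161, 99, and 57 UMIs (5.00-fold), and the nuclear body protein gene *SP110* had 255, 148, 65, and 51 (5.00-fold).

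The most abundant effector gene was *IFITM3*, whose product hinders the fusion of viruses with cell membranes. It had 1799 UMIs in the interferon-high cells, 1143 in the upper-middle cells, 876 in the lower-middle cells, and 598 in the interferon-low cells (3.01-fold, 2.74 to 3.31), and 276 of the 280 interferon-high cells had a UMI. In mock-treated cells, the highest and lowest groups of the score had 1751 and 686 UMIs of *IFITM3*. Its neighbor *IFITM2* had 364 UMIs in the interferon-high cells and 163 in the interferon-low cells (2.23-fold), and reads could be split between these similar genes. The secreted glycoprotein gene *LGALS3BP* was 2.59-fold higher, *SP100* 3.30-fold, *RNF213* 5.34-fold, *C19orf66* 5.95-fold, *ISG20* 4.30-fold, and *PARP14* 4.13-fold.

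Several effector genes with fewer than 200 UMIs over the 1120 cells had most of them in the interferon-high cells. *OASL* had 135 UMIs in the interferon-high cells, 13 in the upper-middle cells, 11 in the lower-middle cells, and 2 in the interferon-low cells (67.5-fold, 18.3 to 563). *IFIT2* had 108, 3, 4, and 3 UMIs, and its UMIs in the interferon-high cells came from 21 cells. *XAF1*, a proapoptotic gene, had 107, 31, 16, and 4 UMIs, and *IFITM1* had 80, 24, 13, and 4. *IFI44* had 46, 10, 6, and 2 UMIs (23.0-fold, 6.02 to 196), in 36 interferon-high cells and 2 interferon-low cells. *IFI16*, a sensor of DNA, had 7 UMIs in the interferon-high cells and none in the other 3 groups or in the eligible mock-treated cells. *OASL*, *IFIT2*, *XAF1*, and *IFITM1* were picked after their values were seen.

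ISG15 is attached to proteins by enzymes that are themselves induced by interferon. Of 9 genes listed for this pathway, 8 had more UMIs in the interferon-high cells and 1 had fewer. *HERC5*, the ligase, had 177 and 60 UMIs in interferon-high and interferon-low cells (2.95-fold, 2.19 to 4.02), and *TRIM25* had 181 and 87 (2.08-fold). *PARP9* and *DTX3L* were counted in the list, although their products form a complex that modifies histones. These neighboring genes had 168 and 17 UMIs (9.88-fold) and 111 and 25 UMIs (4.44-fold). *ARIH1*, a general ubiquitin ligase, was the gene with fewer, with 134 and 136 UMIs. The conjugating enzyme gene *UBE2L6* had 105 and 24 UMIs and *USP18*, which removes ISG15, had 107 and 16, both under the limit of 200 UMIs over all cells. Of the 5 measured genes, 4 were higher by 1.5-fold or more, *PARP9* and *DTX3L* among them. The median log2 ratio was 1.56, or 1.06 over the genes with 200 UMIs in mock-treated cells. Apart from *PARP9* and *DTX3L*, the measured genes were *HERC5*, *TRIM25*, and *ARIH1*, with log2 ratios of 1.56, 1.06, and −0.02. The split of mock-treated cells gave −0.15 over 3 genes.

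Among the sensors of nucleic acid, those for cytosolic RNA that are induced by interferon differed, and the adaptor gene *MAVS* did not reach 1.5-fold. *IFIH1*, which encodes the RNA sensor MDA5, had 161 UMIs in the interferon-high cells, 81 in the upper-middle cells, 43 in the lower-middle cells, and 20 in the interferon-low cells (8.05-fold, 5.04 to 13.5). *EIF2AK2*, which encodes the RNA-activated kinase PKR, had 452, 323, 234, and 134 UMIs (3.37-fold, 2.78 to 4.12). *DDX58*, which encodes RIG-I, was 3.6-fold higher, *SAMHD1* 2.45-fold, and *ADAR*, whose product edits double-stranded RNA, 2.14-fold. *MAVS*, the adaptor of both RNA sensors, had 198 and 178 UMIs (1.11-fold, 0.904 to 1.37), and the kinase gene *TBK1* had 76 and 73. *CGAS*, the cytosolic DNA sensor, had 26 UMIs in the interferon-high cells and 36 in the interferon-low cells, and none in mock-treated cells. Of the 17 genes, 12 had more UMIs in the interferon-high cells and 2 had fewer, and of the 8 measured 5 were higher by 1.5-fold or more and 0 were lower, with a median log2 ratio of 1.19. The median was 0.34 over the genes with 200 UMIs in mock-treated cells, which leave out *IFIH1*, *DDX58*, and *SAMHD1*.

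Interferon transcripts themselves were almost absent. The 21 ligand genes had 4 UMIs in total in the interferon-high cells and 3 in the interferon-low cells, at 10000 UMIs per cell. *IFNE* had 3 UMIs in the interferon-high cells and 1 in the interferon-low cells, *IFNL1* had 1 and 0, *IFNA1* and *IFNL2* had 0 and 1 each, and *IFNB1* and *IFNG* had none in any of the 4 groups. At this depth, a difference in ligand transcripts between the groups was not detectable, and transcripts made before day 7 were not measured.

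The receptor chains for type I interferon had similar UMIs in both groups, while *IRF7* further down the chain was higher. *IFNAR1*, a receptor chain for type I interferon, had 66 UMIs in the interferon-high cells and 57 in the interferon-low cells (1.16-fold, 0.80 to 1.68), and *IFNAR2* had 15 and 16. *IFNLR1*, the receptor chain for type III interferon, had 13 UMIs and 1 UMI (13.0-fold, 1.95 to 552). *IRF7*, the factor that amplifies interferon production, had 298, 190, 131, and 122 UMIs from interferon-high to interferon-low cells (2.44-fold, 1.97 to 3.04). *STAT2* had 37 and 14 UMIs (2.64-fold, 1.40 to 5.29) and *IRF9* had 47 and 17 (2.76-fold, 1.56 to 5.14). *IRF1* had 104 and 78 UMIs, *IRF2* had 17 and 5, *IRF3* had 214 and 169 (1.27-fold, 1.03 to 1.56), *STAT3* had 168 and 143, and *JAK1* had 136 and 145. Of the 20 genes of the list, 17 had more UMIs in the interferon-high cells and 3 had fewer, and of the 9 measured 2 were higher by 1.5-fold or more and 0 were lower, with a median log2 ratio of 0.23. The median in mock-treated cells was 0.26.

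MHC class I molecules display peptides made by the proteasome, and the genes of this chain were higher at most steps. *B2M*, the light chain, had 2918 UMIs in the interferon-high cells, 1926 in the upper-middle cells, 1645 in the lower-middle cells, and 1352 in the interferon-low cells (2.16-fold, 2.02 to 2.30). The heavy chain genes *HLA-B* and *HLA-C* were 2.67-fold (2.38 to 3.00) and 2.36-fold (2.13 to 2.61) higher, and reads could be split among similar genes of this family. *PSMB9*, a subunit of the immunoproteasome, had 179, 66, 42, and 25 UMIs (7.16-fold, 4.70 to 11.4), and the proteasome activator genes *PSME1* and *PSME2* were 2.10-fold and 2.03-fold higher. *TAP1* and *TAP2*, which carry peptides into the endoplasmic reticulum, were 3.22-fold and 3.16-fold higher, and *TAPBP* was 2.16-fold higher. The chaperone genes *CALR*, with 2020 and 1961 UMIs, and *CANX*, with 656 and 803, did not follow. In all, 20 of the 22 genes had more UMIs in the interferon-high cells and 2 had fewer, and of the 15 measured 11 were higher by 1.5-fold or more and 0 were lower, with a median log2 ratio of 1.07. The genes with 200 UMIs in mock-treated cells gave the same median, 1.07, and the split of mock-treated cells gave 0.28.

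Genes of the NF-κB response, which is set off by many of the same sensors, had a median ratio below the effector and MHC class I lists. It was above that of the receptor list. *NFKBIA*, the inhibitor that NF-κB induces, had 378, 238, 252, and 197 UMIs from interferon-high to interferon-low cells (1.92-fold, 1.61 to 2.29). *IL32* had 510, 401, 413, and 294 UMIs (1.73-fold, 1.5 to 2.01), and mock-treated cells had 0.122 UMI of *IL32* per cell against 1.05 in the interferon-low cells. *CXCL16* was 2.27-fold higher, *TNFAIP2* 1.84-fold, *IL18* 1.67-fold, and *TNIP1* 1.57-fold, and *NFKB2* was 1.18-fold higher (0.945 to 1.49). *BIRC3*, an inhibitor of apoptosis, had 120 and 39 UMIs (3.08-fold, 2.13 to 4.54). Of the list, 20 genes had more UMIs in the interferon-high cells and 0 had fewer. It had 7 of 11 measured genes higher and 0 lower, with a median log2 ratio of 0.74 (0.70 over genes with 200 UMIs in mock-treated cells), and 1 of 8 higher with a median of 0.14 in mock-treated cells. *CCL5*, a chemokine gene induced by interferon signaling, had 6 UMIs in the interferon-high cells and 0 in the others, and *CXCL10* had none.

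**Figure D4:**
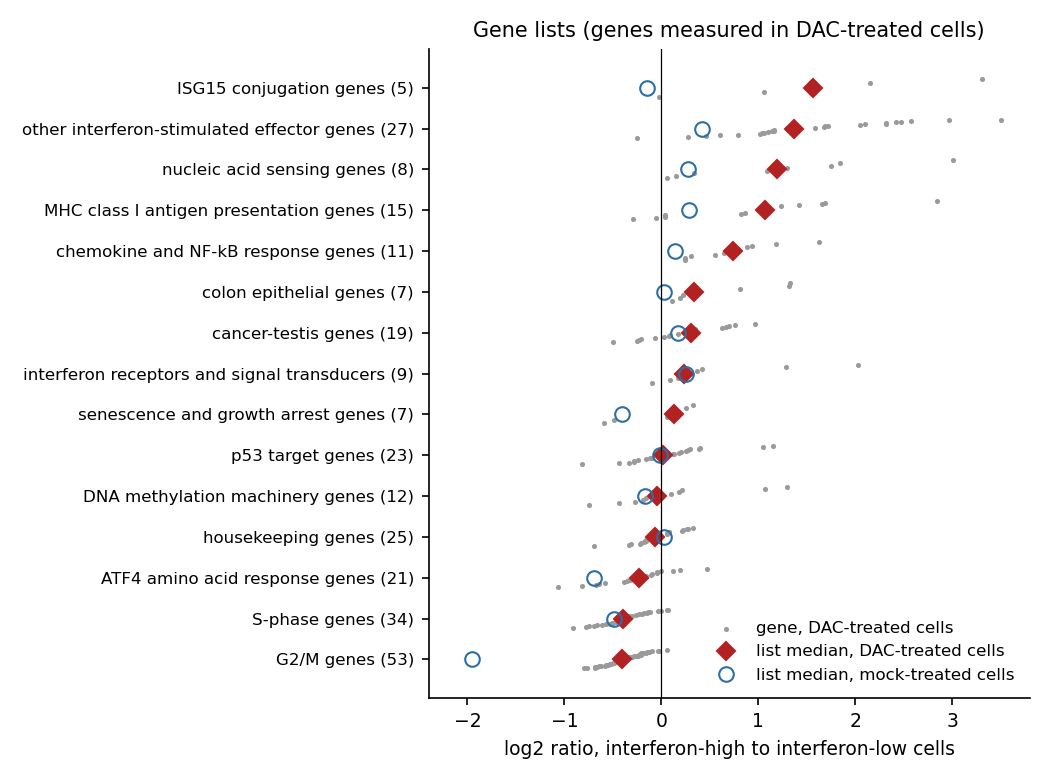
Log2 ratio of the interferon-high cells to the interferon-low cells (horizontal axis) for the measured genes of 15 lists (grey points), with the list median in DAC-treated cells (red diamonds) and in the same split of mock-treated cells (blue circles). Numbers in parentheses are genes measured in DAC-treated cells. Medians are above 1 for ISG15 conjugation, effector, sensing, and MHC class I genes (for sensing 0.34 over genes with 200 UMIs in mock-treated cells), and the G2/M median is −0.40 in DAC-treated and −1.95 in mock-treated cells.

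Genes that were silent without DAC were slightly higher in their sum in interferon-high than in interferon-low cells, while single genes differed in both directions. This list was made from these libraries as the 200 genes outside the interferon lists with the highest mean in DAC-treated cells, among those with at most 2 UMIs in any mock-treated cell. The list had 48.7 UMIs per cell in the interferon-high cells, 43.5 in the upper-middle cells, 43.2 in the lower-middle cells, and 44.8 in the interferon-low cells, a ratio of 1.09 (1.06 to 1.11) between interferon-high and interferon-low cells. In mock-treated cells they had 2.0 UMIs per cell. The median per cell was 44 in the interferon-high, 37.5 in the upper-middle, 38 in the lower-middle, and 37 in the interferon-low cells. Of the 200 genes, 108 had more UMIs in the interferon-high cells and 86 had fewer, and of the 65 measured 13 were higher and 6 were lower by 1.5-fold or more, both larger shares than the 5.71% and 2.21% of all genes measured, with a median log2 ratio of 0.09. *MEG3*, a noncoding RNA gene, had 598, 406, 516, and 339 UMIs from interferon-high to interferon-low cells (1.76-fold, 1.54 to 2.02), and *SAP25* had 326, 352, 391, and 446 (0.731-fold, 0.632 to 0.845).

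Cancer-testis genes, which are normally active in germ cells, had a median log2 ratio of 0.31 over 19 measured genes of 49. Of the 19, 5 were higher and 0 lower by 1.5-fold or more, against 5.71% and 2.21% of all genes measured. With no limit on UMIs, 33 had more in the interferon-high cells and 8 had fewer, and only 3 members had 200 UMIs in mock-treated cells, of which *MAGEB2*, at −0.20, had the median. *CTAG2*, which encodes a tumor antigen, had 268 and 137 UMIs (1.96-fold, 1.59 to 2.42), *TKTL1* had 319 and 188 (1.70-fold), *PAGE2B* was 1.62-fold higher, *PAGE2* 1.58-fold, and *MAGEA6* 1.54-fold. Without thinning, the ratios of these 5 genes on the log2 scale were 0.70, 0.49, 0.55, 0.45, and 0.21, so that *TKTL1*, *PAGE2B*, *PAGE2*, and *MAGEA6* were no longer past 1.5-fold. *MAGEA4* was 1.25-fold higher, *MAGEB2* had 328 and 378 UMIs, and *VCX3B*, with 558 and 524 UMIs, had 124 UMIs in 1 cell. Reads of the *PAGE2*, *MAGEA*, and *VCX* families could be split between near-identical copies.

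Envelope genes of endogenous retroviruses, whose transcripts can form double-stranded RNA, were sparse. The 11 loci in the table had 96 UMIs in the interferon-high cells and 67 in the interferon-low cells (1.43-fold, 1.04 to 1.99), or 0.343 and 0.239 per cell, and mock-treated cells had 0.203 per cell. All 6 loci with a UMI had more in the interferon-high cells. *ERVMER61-1* had 9 UMIs in the interferon-high cells, 7 in the upper-middle cells, 5 in the lower-middle cells, and 3 in the interferon-low cells, and *ERVW-1* had 4, 3, 0, and 1. *ERVMER34-1* had 30 and 23 UMIs, *ERVK3-1* had 29 and 21, and *ERV3-1* had 23 and 19, with intervals that all included a ratio of 1. Other retroviral copies were not analysed here.

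Most genes of cell division had somewhat fewer UMIs in the interferon-high cells, by less than 1.5-fold for all but a few. G2/M genes took a median of 0.638% of the UMIs of an interferon-high cell, 0.699% in the upper-middle cells, 0.732% in the lower-middle cells, and 0.881% in the interferon-low cells, and the median over all mock-treated cells was 0.145%. Of 56 G2/M genes, 55 had fewer UMIs in the interferon-high cells and 1 had more. The median log2 ratio of the 53 measured was −0.40. By 1.5-fold or more, 8 of them were lower and 0 higher, against 2.21% and 5.71% of all genes measured. *HMGB2* had 807 and 1257 UMIs (0.642-fold, 0.587 to 0.702), *CKS1B* had 552 and 876 (0.630-fold), *CCNB1*, a cyclin of mitosis, had 441 and 708 (0.623-fold), and *KIF2C* had 90 and 156 (0.577-fold). *JPT1* and *TUBB4B*, the G2/M genes with the most UMIs, had ratios of 0.939 (0.90 to 0.980) and 0.896 (0.847 to 0.947). In mock-treated cells, 41 of 45 genes were lower in the highest group of the score, with a median of −1.95. When cells were ranked within 3 groups of similar G2/M share, the median of the effector genes was 1.38. The G2/M median was then −0.014, but these same genes formed the groups, so a value near 0 was set by the ranking. The G2/M median was −0.10 with the mean rank of the 8 genes, −0.19 within groups of mitochondrial share, and −0.22 with the score without *IFI27*. Without thinning, 4 of the 8 genes were still past 1.5-fold, and *KIF2C* was not, with a log2 ratio of −0.47.

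S-phase genes had a median log2 ratio of −0.40 over 34 measured genes of 42, and 37 of the 42 had fewer UMIs in the interferon-high cells. Of the 34, 6 were lower and 0 higher by 1.5-fold or more, against 2.21% and 5.71% of all genes measured. *UNG*, which removes uracil from DNA, had 58 and 109 UMIs (0.532-fold, 0.380 to 0.738), *UHRF1*, which guides DNMT1 to newly made DNA, had 105 and 176 (0.597-fold, 0.464 to 0.764), *GMNN* had 145 and 235, and *SLBP* had 378 and 578. Without thinning, 3 of the 6 genes were still past 1.5-fold, and *UHRF1*, *GMNN*, and *SLBP* were not, with log2 ratios of −0.47, −0.42, and −0.39. *TYMS* had 502 and 748 UMIs (0.671-fold), *PCNA* 477 and 637, *RRM2* 443 and 573, and *NASP* 811 and 898. *DNMT1* had 521, 576, 608, and 705 UMIs from interferon-high to interferon-low cells (0.739-fold, 0.659 to 0.829), which is short of 1.5-fold. Of the 12 measured genes of the list for DNA methylation, *UHRF1* was lower by 1.5-fold or more. The 2 higher genes of the list act on nucleotides, *SAMHD1*, which degrades deoxynucleotides and is also in the sensing list, and *CDA*. *CDA*, the enzyme that deaminates cytidine and DAC, had 221, 192, 159, and 105 UMIs (2.10-fold, 1.66 to 2.68), and in mock-treated cells the highest and lowest groups of the score had 167 and 98.

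The list of ATF4 targets, which respond to a shortage of amino acids, had a median of −0.23 over 21 measured genes. Of these, 5 were lower and 0 higher by 1.5-fold or more, against 2.21% and 5.71% of all genes measured. *PHGDH*, the first enzyme of serine synthesis, had 78 and 163 UMIs (0.479-fold, 0.361 to 0.631), *ASNS* had 92 and 144, *SLC7A1* 59 and 94, *SESN2* 55 and 97, and *DDIT4* 54 and 81. Without thinning, the log2 ratio of *PHGDH* was −0.78 and those of *ASNS*, *SLC7A1*, *SESN2*, and *DDIT4* were −0.46, −0.40, −0.37, and −0.11, which are short of 1.5-fold. In mock-treated cells, 15 of 25 genes of the list were lower, with a median of −0.69.

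The lowest ratios were partly set by single cells. *H3.Y* had 4 UMIs in the interferon-high cells, 134 in the upper-middle cells, 4 in the lower-middle cells, and 78 in the interferon-low cells, detected in 3 and 5 cells of the interferon-high and interferon-low groups, and 1 upper-middle cell had 91. Its log2 ratio of −4.29 turned to between 0.28 and 3.97 under 7 alternatives. *HSPA1B*, a heat shock gene, had 173 and 403 UMIs, of which 129 were in 1 interferon-low cell, and its log2 ratio was −1.22 with that cell and −0.67 without it. Its reads could be split with its near-identical neighbor *HSPA1A*. *RBBP6* had 321 and 738 UMIs, of which 202 were in another cell, and its log2 ratio was −1.20 with that cell and −0.74 without it. *RFC3*, a subunit of the clamp loader of replication, had 44 and 100 UMIs (0.440-fold, 0.301 to 0.633), and *CTGF* had 51 and 109 (0.468-fold). *IFRD1*, *NUP54*, *FOPNL*, and the histone gene *HIST1H1A* had ratios of 0.490, 0.491, 0.505, and 0.519. Without thinning, *NUP54* and *FOPNL* had log2 ratios of −0.52 and −0.30 and were short of 1.5-fold.

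Targets of p53, which DNA damage induces, had a median log2 ratio of 0.02 over 23 measured genes, with 2 higher and 1 lower by 1.5-fold or more, against 5.71% and 2.21% of all genes measured. *CDKN1A*, which stops the cell cycle, had 628 and 527 UMIs (1.19-fold, 1.06 to 1.34), *BAX* had 326 and 354, and *FDXR* was 1.31-fold higher. *GDF15*, a stress-induced cytokine, had 1118, 911, 807, and 502 UMIs from interferon-high to interferon-low cells (2.23-fold, 2.0 to 2.48), but 1937 and 2741 in the highest and lowest groups of mock-treated cells. *TP53I3* had 97 and 47 UMIs (2.06-fold, 1.44 to 2.99), and the lower gene was *SESN2*. Of 7 measured genes of senescence and growth arrest, *CDKN2D* was lower (0.663-fold, and −0.53 on the log2 scale without the cell with the most UMIs) and none was higher by 1.5-fold, and *CDKN2A* was 1.1-fold higher (0.913 to 1.32).

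Markers of colon epithelium were present in all 4 groups. *KRT18* had 44.2 UMIs per cell in the interferon-high cells and 40.9 in the interferon-low cells, and *EPCAM* had 2.60 and 2.22. *KRT8* was 1.15-fold and *KRT19* 1.26-fold higher. The junction genes *CLDN4* (2.51-fold, 1.78 to 3.6), *CDH1* (2.50-fold, 1.64 to 3.89), and *CLDN7* (1.76-fold, 1.54 to 2.0) were higher. This was 3 of 7 measured genes, against 5.71% of all genes measured, and the list had a median log2 ratio of 0.34. Of the 20 genes listed, 14 had more UMIs in the interferon-high cells and 5 had fewer. In the highest and lowest groups of mock-treated cells, *CLDN4* had 380 and 247 UMIs, *CDH1* 61 and 83, and *CLDN7* 814 and 1208, with a list median of 0.03. Markers of other cell types, of which 23 were listed, summed to 174 UMIs in the interferon-high cells and 108 in the interferon-low cells, with 9 genes having more and 5 fewer in the interferon-high cells. *MS4A1*, *NKG7*, *LUM*, and *FCGR3A* had no UMI in any of the 4 groups, *PTPRC* had 1 UMI in the interferon-high cells and 0 in the interferon-low cells, *CD3E* and *LYZ* had 1 and 2 each, and 76 and 30 of the summed UMIs were of *COL1A1* (2.53-fold, 1.64 to 4.01). Their part in the other values was not tested.

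Of 25 measured housekeeping genes, none was higher by 1.5-fold, and *TFRC*, the transferrin receptor gene, was lower (0.619-fold, 0.496 to 0.771), although its log2 ratio without thinning, −0.57, was short of 1.5-fold. *GAPDH* had 23.2 UMIs per cell in the interferon-high cells and 24.2 in the interferon-low cells. Of the 26 housekeeping genes listed, 9 had more UMIs in the interferon-high cells and 17 had fewer. For the 87 genes of cytosolic ribosomal proteins, 5 had more and 81 had fewer. The 84 measured genes of cytosolic ribosomal proteins had a median log2 ratio of −0.17 with 1 gene, *RPL39L*, past 1.5-fold (0.643-fold, and −0.53 on the log2 scale without thinning), and *RPS2* had 62.5 and 72.5 UMIs per cell. Of the 13 mitochondrial genes, *MT-CO2* was 1.21-fold higher (1.20 to 1.22), and *MT-ND6* was lower (0.610-fold, 0.570 to 0.653). When cells were ranked within 3 groups of similar mitochondrial share, an alternative added after the data were seen, 248 of the 347 higher genes were again past 1.5-fold, and the median log2 ratio of the effector genes was 1.37.

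The motif was also counted in the promoter windows of all genes measured. Of the higher genes in the table, 35 of 270 had it (13.0%), against 192 of 5037 of all genes measured (3.81%). Of the 37 genes that were in an interferon list, higher by 1.5-fold or more, and present in the table, 23 had the motif in a window (62.2%). Of the 16 interferon list genes short of 1.5-fold, 1 had it (6.25%). With the genes that had 200 UMIs in mock-treated cells, 14 of 26 had it (53.8%) among those higher by 1.5-fold or more and 0 of 15 among the others. Among genes higher by 1.5-fold or more in no interferon list, 12 of 233 had it (5.15%), and among lower genes 2 of 99 (2.02%). Of the 15 genes with the highest ratios, 13 were in the table and 9 had the motif. *PARP9* and *DTX3L* share a match at the same bases, which was counted for both genes here and among the 23.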

How the data were processed

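Single cells of 1 mock-treated and 1 DAC-treated HCT116 culture were profiled using droplet 3′ RNA sequencing. The authors deposited UMI counts per gene and cell, made using Cell Ranger with the hg38 build per the labels and the study's methods, without normalization. The annotation release and the filter on cells were not given in the sources used here.

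Calculations were run in Python 3.11.15 (pandas 2.3.3, numpy 2.4.6, and scipy 1.17.1) and plots were made using matplotlib 3.10.9. Cells were ranked using all their UMIs, thinned to 10000 UMIs without replacement, and summed by group. A gene was called measured with 200 UMIs or more over the eligible cells. Sums have exact Poisson, shares Clopper-Pearson, and ratios conditional binomial 95% intervals. As cells of 1 library are not replicates, no p-value is given. The interferon-high cells, the gene lists, and the alternatives were chosen with earlier results of these data known. Named genes were the 8 score genes, the 15 highest and 10 lowest ratios, in each list the 4 measured members with the most UMIs and up to 6 of those past 1.5-fold, the ligands, receptors, STAT and IRF genes, and 4 genes that the study names. Other genes named were chosen after their values were seen. Some genes that this rule selects are not reported here. Genes were matched by Ensembl identifier, since 24 names were repeated. Doublets were not called, because a single cell line has no marker that tells doublets, and the 5% of cells with the most UMIs were left out as an alternative. Steps were tested on simulated cells with separate classes of score level and counting noise alone, in which only abundant genes were changed. A continuous score, changed genes near 200 UMIs, and genes set by single cells were not simulated. Promoter windows came from RefSeq (GRCh38.p14).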

Additional observations from a re-analysis of the deposited data

Results flagged for a closer look

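The 631 DAC-treated cells outside the limits on UMIs and mitochondrial share, which no comparison used, also had UMIs of the score genes. They had 3979 score UMIs of 4598529, or 8.65 per 10000 (95% Poisson interval 8.39 to 8.93). The 485 mock-treated cells outside the same limits had 1.18 per 10000 (1.05 to 1.31). These values are sums over shallow or mitochondria-rich cells, and the cells were not ranked.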

How the results depend on the processing

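The medians of the effector, MHC class I, sensing, and receptor lists stayed above 0 under every alternative run, from 0.89 to 1.93, 0.68 to 1.25, 0.34 to 1.38, and 0.12 to 0.35, and the left-out score genes ranged from 2.64 to 4.53. Of all list medians under the alternatives, 264 moved by less than the spread used for comparison and 20 by more, and of the gene values 1737 and 335 did, with 8 reversed. Counts past 1.5-fold depended on the setting. With the highest and lowest 10% of cells, 775 genes were higher and 565 lower, the S-phase and G2/M medians were −0.47 and −0.60, and *DDIT4* reversed to 0.23. With the upper and lower 50% of cells, 108 were higher and 20 lower, the effector, S-phase, and G2/M medians were 0.89, −0.24, and −0.23, and *H3.Y* reversed to 0.75. Without thinning, 48 genes were lower. At 1000 UMIs per gene, 45 were higher and 20 lower, at 50 UMIs 1309 and 372, and at 2-fold 84 and 8. With ranking within 3 groups of G2/M share, 87 genes were lower, the S-phase and G2/M medians were −0.16 and −0.014, and *H3.Y* was 0.30. The G2/M genes formed these groups, so their median near 0 was set by the ranking. Within 3 groups of mitochondrial share, 87 were lower, these medians were −0.26 and −0.19, and *H3.Y* was 0.28. *H3.Y* was also 0.28 with cells of 20000 UMIs or more and within 5 groups of depth, 0.30 with the score without *IFI27*, and 3.97 at 20% or less mitochondrial UMIs. The G2/M median was −0.27 at that limit, −0.22 without *IFI27*, and −0.10 with the mean rank of the 8 genes. The causes were not tested. Ranking within mitochondrial groups, choosing genes by their UMIs in mock-treated cells, and leaving out the cell with the most UMIs of a gene were added after seeing the data. No paired analysis was possible because each condition had 1 library. That single library per condition limits every value, a difference between cultures cannot be told apart from DAC, and genes with few UMIs, such as the ligands, were not resolved at 10000 UMIs per cell.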

Other observations

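Among the 117 genes that stayed higher by 1.5-fold or more over the 8 alternatives, 76 were in no interferon list, and those named here were chosen after their values were seen. They were not tested as a group. The retinoic acid binding protein gene *CRABP2* had 287 UMIs in the interferon-high cells, 194 in the upper-middle, 129 in the lower-middle, and 81 in the interferon-low cells (3.54-fold, 2.76 to 4.59). *CLIC3* had 348, 296, 198, and 126 UMIs (2.76-fold), and *RAB25*, a GTPase of epithelial membrane traffic, had 198, 175, 131, and 80 (2.48-fold). The epithelial transcription factor gene *ELF3* was 2.36-fold higher (1.58 to 3.59), and *KLF4* was 1.96-fold higher (1.37 to 2.82). *CRABP2*, *CLIC3*, *RAB25*, *ELF3*, and *KLF4* each had more UMIs in each higher group. In mock-treated cells split by the same score, *CRABP2* had 307 and 214 UMIs in the highest and lowest groups, *CLIC3* 110 and 32, *RAB25* 437 and 334, *ELF3* 281 and 139, and *KLF4* 90 and 100.

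Some keratin genes that are not markers of simple colon epithelium, picked after their values were seen, were uneven between cells. *KRT81* had 570, 534, 288, and 311 UMIs from interferon-high to interferon-low cells (1.83-fold, 1.59 to 2.11), and *KRT7* had 793, 804, 559, and 513 (1.55-fold). Of these, 81 and 64 UMIs were in 1 cell each, and without that cell the log2 ratios were 1.30 and 0.51, the latter short of 1.5-fold. *KRT13* had 214 and 53 UMIs, but 85 of them were in 1 interferon-high cell, and its log2 ratio was 1.29 without that cell. *KRT23* had 202 and 83 UMIs (2.43-fold) and *KRT17* had 73 and 29 (2.52-fold). The cell with the most UMIs of either gene was in a middle group, so that leaving it out did not change these ratios. *GSDMD*, which forms pores in dying cells, had 139 and 59 UMIs (2.36-fold, 1.73 to 3.25), and *PRF1*, a pore protein known from cytotoxic lymphocytes, had 335, 272, 230, and 187 (1.79-fold, 1.49 to 2.15). All 11 genes that stayed lower were in no interferon list. Among them, *HMOX1*, which breaks down heme, had 48 and 92 UMIs (0.522-fold), in 40 interferon-high and 36 interferon-low cells, but 26 of them were in 1 cell and its log2 ratio was −0.46 without that cell, short of 1.5-fold. *CSTF3*, a factor of transcript cleavage, had 83, 139, 139, and 154 (0.539-fold, 0.408 to 0.708).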
